A study of Mus musculus with 10 samples.

Results

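CC chemokines are small secreted proteins with adjacent cysteines near the start of the mature chain, and their receptors are G protein-coupled receptors on leukocytes and some tissue cells. The genes described here are protein-coding mouse genes whose symbol is Ccl or Ccr followed by a digit. They came to 33 of the 41388 genes in the deposited count tables, 23 ligands and 10 receptors. Pseudogenes with such a symbol were left out, which removed 2 genes. RNA came from whole ear skin of C57Bl/6 mice, 1 library per mouse, in 2 groups. The Littermate group held 4 libraries, labelled wild type (WT). The Experimental group held 6 libraries, and its genotype is written in 2 ways. The sample labels give NaV1.8+ Jak1F/F, and the series text gives NaV1.8+ Il4raF/F. Which of these floxed genes the mice carried cannot be told apart from the labels, so the groups are called by their titles. NaV1.8 is the sodium channel Scn10a of nociceptive sensory neurons, whose cell bodies lie outside the ear. Both groups received MC903 (calipotriol), which acts on the vitamin D receptor and causes an itching dermatitis, and the series text gives 1 nM topically each day for 12 days. No untreated skin is part of the comparison, so how far MC903 moved any chemokine gene was not measured.

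As background, a chemokine binds proteoglycans near its source, and leukocytes that carry the matching receptor move towards it. Most inflammatory CC chemokines bind more than 1 receptor, and most receptors bind several of them, whereas the homeostatic pairs, such as Ccl19 and Ccl21 with Ccr7 or Ccl25 with Ccr9, are narrower. In allergic skin inflammation the family is known for 4 axes: Ccl17 and Ccl22 with Ccr4 on T helper type 2 cells, Ccl8 with Ccr8, the eotaxins Ccl11 and Ccl24 with Ccr3 on eosinophils, and the monocyte chemoattractants Ccl2, Ccl7 and Ccl12 with Ccr2.

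The libraries held between 11520348 and 41935183 counts assigned to genes, and the Littermate libraries between 12865459 and 14324433, so 3 counts equalled 0.0715 to 0.260 CPM (counts scaled by library size). Keratinocyte markers summed to 25920 to 33797 normalized CPM over the 10 libraries. Jak1 differed by -0.06 on the log2 scale (95% interval -0.22 to 0.10, edgeR adjusted p = 0.815) and Il4ra by -0.20 (-0.55 to 0.16, adjusted p = 0.678). Scn10a had 2 counts in all 10 libraries together. Whole ear RNA therefore gave no check of either genotype label, since a deletion in those neurons would not be visible in it. Between the groups, 3 of 16830 genes tested passed an adjusted p of 0.05 in edgeR's quasi-likelihood test. That count was 343 without Littermate 2, 28 without Experimental 6 and 8 without Littermate 3. Nothing in the labels gives sex, age, litter or a batch. The 4 Y-linked genes checked summed to 229 to 340 normalized CPM over the 10 libraries, so every library held RNA of male skin. Library Experimental 6 stood apart for many of the genes below, and values with and without it are given below.

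Of the 33 genes, 28 passed the filter on low counts, 19 ligands and 9 receptors. The other 5 were Ccl21a, Ccl21b and Ccl27b, which had 0 counts in all 10 libraries, Ccl26, an eotaxin gene with 1 count in library Experimental 5, and Ccr1l1, a Ccr1-like receptor gene with 44 counts in all. The 0 counts of Ccl21a, Ccl21b and Ccl27b do not show that the genes were silent. Of the 50-base windows in their transcripts, 71.6% of Ccl21a, 100% of Ccl21b and 98.1% of Ccl27b also occurred in another GENCODE M21 gene. A read of 50 bases from such a window has no single origin. The remaining windows of Ccl21a also gave 0 counts, and the reason was not tested. Ccl27a shared 45.0% of its windows, Ccl19 shared 52.0%, Ccr9 shared 20.1%, and each of the remaining genes at most 2.06%, so the levels of Ccl27a, Ccl19 and Ccr9 are uncertain. The following stretches show how alike the 2 Ccl21 copies are. They are bases 59 to 108 of the coding sequence, 5′ to 3′, with the differing base in capitals, and over 402 coding bases the copies differed at 2:
Ccl21a: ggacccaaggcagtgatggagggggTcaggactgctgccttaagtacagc
Ccl21b: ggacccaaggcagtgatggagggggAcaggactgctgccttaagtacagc
Ccl27b likewise matched Ccl27a at 422 of 425 bases.

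Among the ligands that could be counted, Ccl8 had the highest RNA level in the inflamed ear. In the mouse Ccl8 is a ligand of Ccr8 and attracts T helper type 2 cells. Ccl8 (ENSMUSG00000009185, mm10 chromosome 11, 82115185 to 82116799) stood at 524 ± 69.0 normalized RPKM, counts scaled by library size and gene length (SD, n = 4), in Littermates and 430 ± 121 (n = 6) in Experimental mice. That level ranked 65th among the 16830 genes tested. Ccl6, a ligand of Ccr1 on myeloid cells, came next at 77.7 and 71.4 RPKM. The Ccl8 level was 5.03 to 8.41 times that of Ccl6 in every library, so their order did not depend on the group. Ccl8 alone made up 70.0% ± 3.75 of the summed ligand RPKM in Littermates and 66.6% ± 2.81 in Experimental mice. Ccl8 and Ccl6 together made up 80.4% ± 2.30 and 77.7% ± 2.73. In that sum Ccl21a, Ccl21b and Ccl27b stood at 0, and the levels of Ccl27a and Ccl19 are uncertain. The shares therefore hold only for the ligands as counted.

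A second tier of ligands lay well below. The Ccr1 ligand Ccl3, the eotaxin Ccl11 and another Ccr1 ligand, Ccl9, had mean levels of 27.0, 22.5 and 23.7 RPKM in Littermates and 23.6, 26.3 and 23.3 in Experimental mice. Their ranges over libraries overlapped, and the order of these 3 is not resolved. Ccl2 (12.8 and 14.9), Ccl7 (12.3 and 13.0), Ccl4 (11.4 and 10.4), Ccl12 (9.54 and 9.71), Ccl24 (7.67 and 6.41) and Ccl17 (6.67 and 6.65 RPKM) followed in that order by Littermate mean, and each overlapped its neighbours over libraries. The remaining tested ligands, from Ccl22 at 2.93 and 3.46 RPKM down to Ccl28 at 0.233 and 0.244, were lower still. Ccl1 lay near the bottom at 0.292 and 0.290 RPKM, but its deposited length of 2369 bases belongs to a gene model that runs from 82176657 to 82305690 on chromosome 11, so its level per length rests on that model.

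Receptor RNA was far below ligand RNA per length. Summed over the receptors, RPKM came to 29.7 ± 3.13 in Littermates and 30.4 ± 4.27 in Experimental mice, against 747 ± 65.7 and 648 ± 200 for the ligands. Ccr2, the receptor of inflammatory monocytes, and Ccr1, a receptor of monocytes and neutrophils, led with 7.54 and 9.54 RPKM in Littermates and 9.28 and 7.32 in Experimental mice. Ccr4 (3.56 and 3.76 RPKM) followed. Ccr9, Ccr7, Ccr10, Ccr8 and Ccr6 lay between 1.14 and 2.82 RPKM, and Ccr3, the eotaxin receptor, was lowest of the tested receptors at 0.551 and 0.743.

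**Figure D1:**
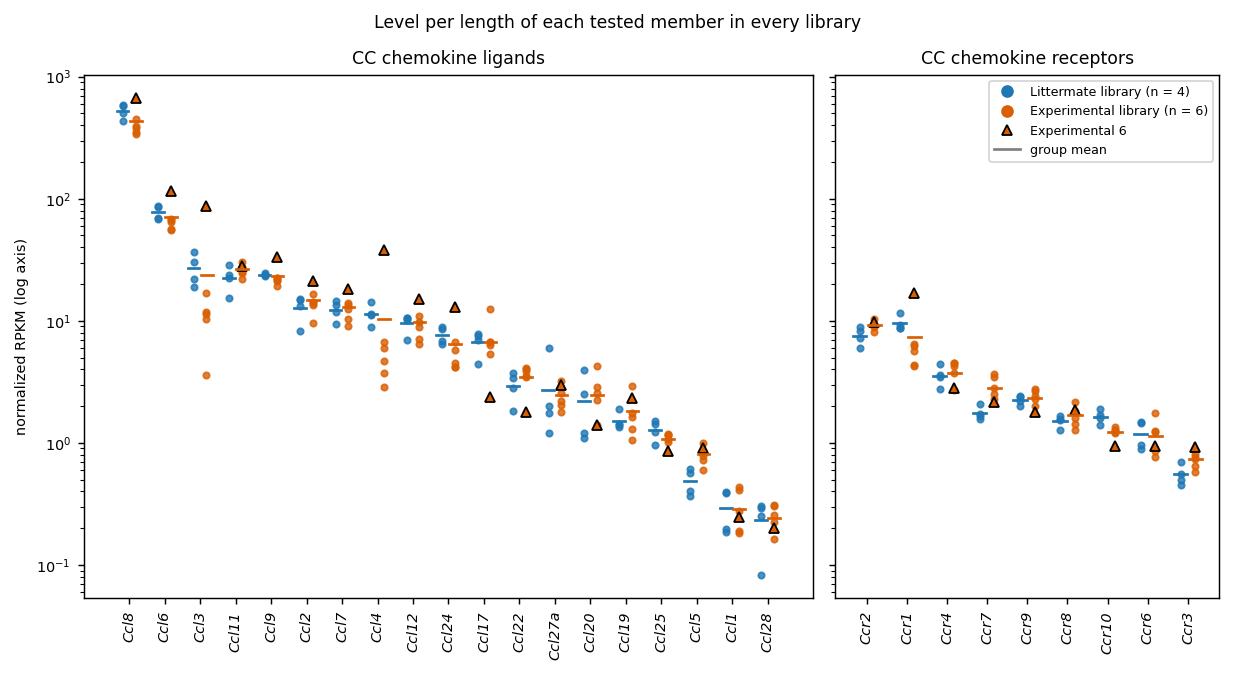
Level of each gene per length (normalized RPKM, log axis) in each library, ligands and receptors in separate panels, with circles for Littermate (n = 4) and Experimental (n = 6) libraries, triangles for Experimental 6 and lines for group means. Ccl8 lies above all other tested members in every library.

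Grouping the genes by receptor set ligand and receptor levels side by side. For the Ccr8 group, ligands summed to 524 ± 69.1 RPKM in Littermates and 430 ± 121 in Experimental mice, nearly all of it Ccl8, while Ccr8 itself was at 1.51 and 1.70. For the Ccr1 group, Ccl6 and Ccl9 summed to 101 ± 9.69 and 94.7 ± 27.3 RPKM. Ccl3, Ccl4 and Ccl5 summed to 38.8 ± 10.05 and 34.7 ± 45.3 RPKM, and the Experimental SD exceeded the mean because 1 library, Experimental 6, stood at 126.6. Ligands of Ccr2 summed to 34.7 ± 6.81 and 37.5 ± 9.46 RPKM, and eotaxins to 30.2 ± 6.47 and 32.8 ± 5.17. The Ccr4 ligands Ccl17 and Ccl22 summed to 9.60 ± 1.75 and 10.1 ± 3.95 RPKM. In the narrower pairs the genes with counts were low: for Ccr7, Ccl19 was at 1.52 and Ccr7 at 1.77 RPKM in Littermates. For Ccr9, Ccl25 was at 1.29 and Ccr9 at 2.25 RPKM there. The Ccr7 ligand genes Ccl21a and Ccl21b had 0 counts, which do not show that they were silent. The full ligand level for Ccr7 is therefore not known, and shared windows make the Ccl19 and Ccr9 levels uncertain. Group means of all these ligand sums differed by less than 1 SD of one group or the other.

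No CC chemokine or receptor gene passed an adjusted p of 0.05 between Experimental and Littermate skin, 0 of 28 tested, where 0.0178% of all genes tested passed (3 of 16830). At an unadjusted p under 0.05, edgeR's count was 5 of 28 (Ccr7, Ccr2, Ccl5, Ccr10 and Ccr3), against 11.8% of all genes. DESeq2 called 1 member, Ccr7, which was higher. Of the 29512 genes with any count, including those given no adjusted p, it called 0.786% in either direction and 0.122% higher. With the replicate numbers as a block, edgeR called 1 member, Ccr1, where 0.398% of genes passed. Only Experimental libraries carry the numbers 5 and 6, so in that fit Experimental 5 and Experimental 6 do not inform the group difference. The fold changes of the 28 ran from -0.42 to 0.73 on the log2 scale, with a median of 0.06, and 16 lay above 0. All tested genes had a median of -0.00 and 49.6% above 0. Ligands had a median of 0.01 (10 above and 9 below 0) and receptors 0.09 (6 above and 3 below 0). Standard errors ran from 0.10 to 0.78 with a median of 0.21. In simulated counts with the same design and library sizes, 60.0% of genes changed 1.5-fold and 92.4% of genes changed 2-fold were recovered. The changed genes were drawn at random above 1 CPM, and 166 genes were called there, against 3 in the data. All tested genes had a median standard error of 0.12, below that of the members. These shares therefore do not carry over to the members, for which changes of 2-fold or more could also be missed.

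**Figure D2:**
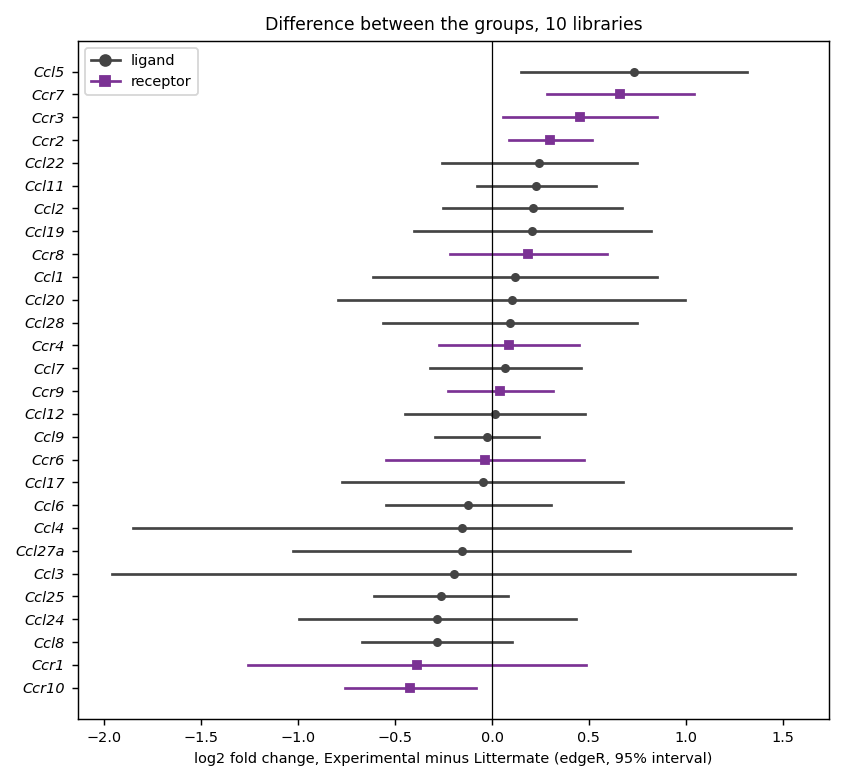
Fold change of each tested member (log2, Experimental minus Littermate, edgeR; points with 95% intervals), ordered by size, ligands as circles and receptors as squares. Values run from -0.42 (Ccr10) to 0.73 (Ccl5), and the widest intervals belong to Ccl3 and Ccl4.

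Among the receptors, Ccr7 had the lowest p. Ccr7 guides dendritic cells and T cells from skin into lymphatic vessels and lymph nodes. The gene (ENSMUSG00000037944) lies on mm10 chromosome 11 from 99144196 to 99155077. Littermate libraries 1 to 4 had 3.44, 3.30, 3.13 and 4.13 normalized CPM, and Experimental libraries had a lowest, median and highest of 4.25, 5.30 and 7.28. Every Experimental library lay above every Littermate library, so the groups did not overlap. Of all tested genes, 0.761% were separated in that direction, and of the members only Ccr7. The log2 difference was 0.66 ± 0.18 (SE; 95% interval 0.28 to 1.04, unadjusted p = 0.00212, adjusted p = 0.162 in edgeR). In DESeq2 it was 0.67 with an adjusted p of 0.0470, so the call depended on the tool, and over the alternatives tried the adjusted p ran from 0.0470 to 0.872. Its ligand Ccl19 had 1.64, 1.17, 1.21 and 1.25 CPM in Littermates and 0.907, 1.46 and 2.53 (lowest, median, highest) in Experimental libraries, which overlapped widely. The 9 markers of dendritic and Langerhans cells summed to 210 to 263 CPM in Littermates and 221 to 247 in Experimental libraries, with no gene called, 3 above 0 and a median log2 difference of -0.01. Epcam, also an epithelial gene, made up much of that sum (97.4 CPM in Littermates and 109.5 in Experimental mice on average). Flt3 (0.40, unadjusted p = 0.022 in edgeR), Cd207 (0.34) and Epcam (0.17) lay above 0, and Fscn1 (-0.27) had the largest difference below. Of the 10 tested T cell markers, 8 lay above 0, with a median of 0.16 and none called. Their part in the Ccr7 values was not tested. In whole tissue, fewer cells of a type and less RNA per cell cannot be told apart.

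Ccr2 (ENSMUSG00000049103, chromosome 9, 124101950 to 124113557) was the most abundant receptor by CPM. Its Littermate libraries had 52.3, 46.0, 56.5 and 37.9 CPM, and its Experimental libraries 52.3, 58.9 and 65.6 (lowest, median, highest). Of the Experimental libraries, 5 of 6 lay above all Littermates. The log2 difference of 0.30 ± 0.10 (SE) had an adjusted p of 0.260 in edgeR. It was 0.21 without Littermate 4, the lowest library, and 0.39 without Littermate 3. With the level of Y-linked genes as a covariate it was 0.19 (unadjusted p = 0.129 in edgeR). The ligands of Ccr2 showed no such separation. Ccl2 stood at 17.1, 15.1, 16.8 and 9.35 CPM in Littermates and 11.01, 16.1 and 24.3 in Experimental libraries (log2 0.21 ± 0.21). Ccl7 stood at 10.8, 11.6, 9.53 and 7.48 against 7.28, 10.4 and 14.6 (0.07 ± 0.18), and Ccl12 at 5.63, 5.64, 5.47 and 3.74 against 3.496, 4.997 and 8.09 (0.01 ± 0.22). All 3 ligand genes overlapped between the groups, and Experimental 6 was highest for each. Without it the differences were 0.081 for Ccl2, -0.051 for Ccl7 and -0.15 for Ccl12, and without Littermate 4 that of Ccl2 was 0.059. They lie with Ccl11 and Ccl8 in a cluster of 5 genes over 81.2 kb of chromosome 11.

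Ccr3, the receptor of eosinophils, had 2.27, 1.83, 1.64 and 1.48 CPM in Littermates and 1.88, 2.46 and 3.03 (lowest, median, highest) in Experimental libraries. The groups overlapped at 2 of the 6 Experimental libraries, and the log2 difference was 0.45 ± 0.19 (adjusted p = 0.353 in edgeR). Without Experimental 6, the highest library, it was 0.40 (adjusted p = 0.381). The eotaxin Ccl11 had 25.5, 16.6, 31.0 and 24.3 CPM in Littermates and 23.6, 28.4 and 33.1 in Experimental libraries, a log2 difference of 0.23 ± 0.14. It was 0.083 without Littermate 2 and 0.37 without Littermate 3 (unadjusted p = 0.019, adjusted p = 0.337 in edgeR). Eosinophil markers were thinly measured, with 2 of 8 past the filter and a sum of 9.09 to 29.8 CPM in Littermates and 6.98 to 19.6 in Experimental libraries. Their part in the Ccr3 values was not tested.

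Ccr10, the receptor of skin-homing T cells for the keratinocyte chemokine Ccl27, was the only member lower in every Experimental library. It lies on chromosome 11 from 101172997 to 101175443. Littermates had 2.74, 2.93, 3.27 and 2.42 CPM, and Experimental libraries 1.63, 2.17 and 2.35 (lowest, median, highest). Of all tested genes, 1.35% were separated in that direction. The log2 difference was -0.42 ± 0.16 (SE), with an adjusted p of 0.315 in edgeR. Ccl27a had 4.15, 4.76, 14.2 and 2.88 CPM in Littermates and 4.27, 5.67 and 7.59 in Experimental libraries, and the single high value was that of Littermate 3. Its log2 difference was -0.16 ± 0.39 with all libraries and 0.58 without Littermate 3. The T cell markers summed to 51.7 to 62.2 CPM in Littermates and 50.7 to 62.2 in Experimental libraries. That sum held differences of both signs, with Cd4 at -0.43 (unadjusted p = 0.0098 in edgeR) and Cd2 at 0.41. Their part in the Ccr10 values was not tested.

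Ccl5, a Ccr1 ligand made by T cells and natural killer cells, had the largest fold change at a very low level. Littermate libraries had 0.548, 0.586, 0.355 and 0.390 CPM, which is 5 to 8 counts each. Experimental libraries had 0.572, 0.772 and 0.953 CPM (lowest, median, highest), and 5 of 6 lay above all Littermates. The log2 difference was 0.73 ± 0.27 (SE), with an adjusted p of 0.313 in edgeR. At these counts the gene limits what can be said, and some of the alternatives did not test it at all.

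The T helper type 2 axes did not separate the groups. Ccl8 stood at 298, 294, 258 and 222 CPM in Littermates and 174, 198 and 340 (lowest, median, highest) in Experimental libraries, a log2 difference of -0.28 ± 0.18 (adjusted p = 0.570 in edgeR). Of its Experimental libraries, 4 lay below all Littermates and 1, Experimental 6, above them all. Its receptor Ccr8 had 1.80, 1.47, 1.92 and 1.79 CPM against 1.47, 1.98 and 2.52 (0.19 ± 0.19). Ccl22, made by dendritic cells and macrophages, had 6.49, 4.25, 8.67 and 7.87 CPM in Littermates and 4.13, 8.61 and 9.62 in Experimental libraries (0.24 ± 0.23), the lowest being Experimental 6. Its difference was 0.38 without Experimental 6 (unadjusted p = 0.042, adjusted p = 0.347 in edgeR), 0.39 without Littermate 3 and 0.072 without Littermate 2. For Ccl17 the difference was -0.05 ± 0.33, and for their receptor Ccr4 it was 0.09 ± 0.17, and without Experimental 6 they were 0.12 and 0.16. The Ccr9 ligand Ccl25, known from thymus and gut, had 3.29, 3.81, 4.05 and 2.57 CPM against 2.27, 2.98 and 3.15 (-0.26 ± 0.16). Intervals of this width leave room for differences of either sign in Ccl22, Ccl17, Ccr8 and Ccr4. The other tested members, Ccr9, Ccr6, Ccl1, Ccl20 and Ccl28, had log2 differences between -0.04 and 0.12.

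**Figure D3:**
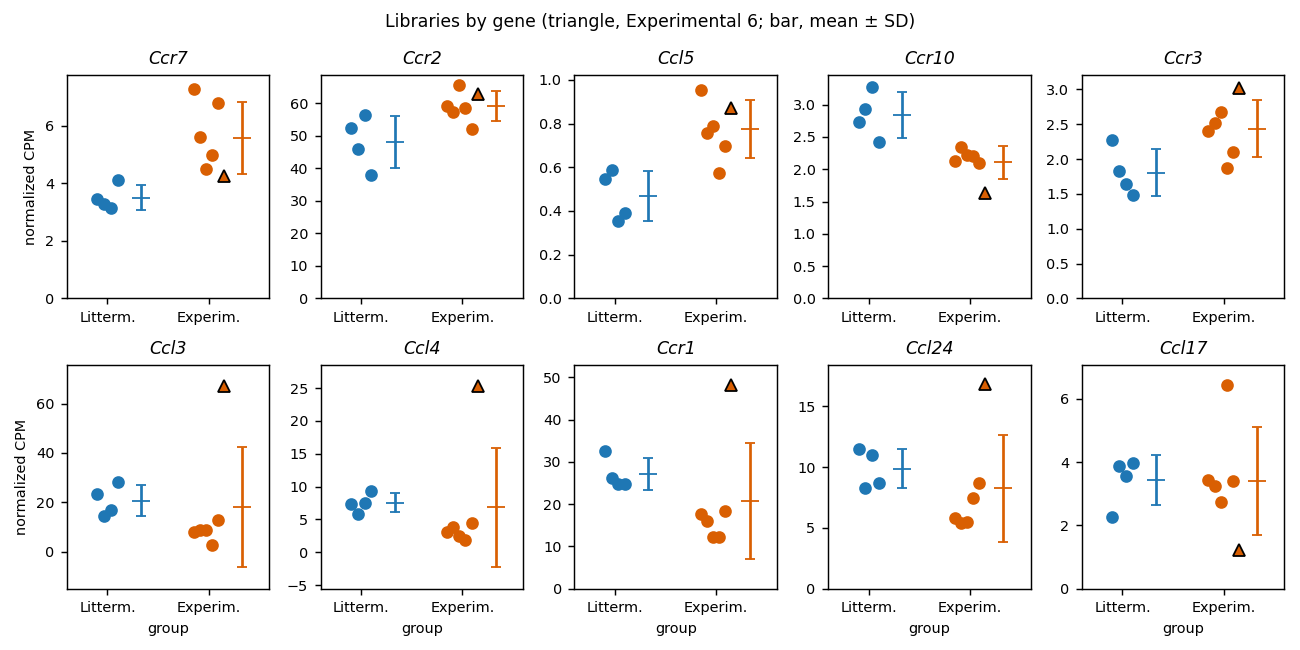
Normalized CPM of 10 members in each library, Littermate (n = 4) and Experimental (n = 6), with Experimental 6 as a triangle and bars for mean ± SD. Ccr7 and Ccr10 do not overlap between groups, while Ccl3, Ccl4, Ccr1 and Ccl24 have 1 high Experimental library above 5 lower ones.

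Library Experimental 6 carried a large part of the spread. It was the highest of the 10 libraries for 11 of 28 members (39.3%: Ccl2, Ccl3, Ccl4, Ccl6, Ccl7, Ccl8, Ccl9, Ccl12, Ccl24, Ccr1 and Ccr3), against 9.46% of all tested genes. It exceeded the median of the other 5 Experimental libraries by at least 1.5-fold for 9 members, against 4.06% of all tested genes. In the opposite direction, 4 members (Ccl17, Ccl20, Ccl22 and Ccr4) stood at least 1.5-fold below that median, against 3.88%. These comparisons of 1 library with others were chosen after its values were seen and carry no test.

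The neighbouring genes Ccl3 and Ccl4, whose products are macrophage inflammatory proteins acting on Ccr1, were the most extreme. Ccl3 (chromosome 11, 83647844 to 83649355) had 23.4, 14.4, 16.8 and 28.1 CPM in Littermates, 7.90, 8.97, 8.74, 2.78 and 12.9 in Experimental 1 to 5 and 67.0 in Experimental 6. Ccl4 (83662584 to 83664683) had 7.35, 5.86, 7.54 and 9.35 CPM in Littermates, 3.08, 3.92, 2.48, 1.88 and 4.46 in Experimental 1 to 5 and 25.3 in Experimental 6. For both genes the 5 libraries lay below every Littermate and the last above every one. With all libraries the log2 differences were -0.20 ± 0.78 and -0.15 ± 0.75 (adjusted p = 0.949 and 0.962 in edgeR). Without Experimental 6 they were -1.31 (adjusted p = 0.137) and -1.25 (adjusted p = 0.0340). Highest and lowest library differed 24.1-fold for Ccl3 and 13.4-fold for Ccl4, against a median of 1.42-fold over the tested genes whose mean reached 5 CPM. Their ratio, Ccl3 to Ccl4, stayed between 1.48 and 3.52 in all 10 libraries.

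Ccr1 showed the same split of libraries. Its values (ENSMUSG00000025804, chromosome 9, 123962126 to 123968692) were 32.6, 26.1, 24.7 and 24.7 CPM in Littermates, 17.5, 16.0, 12.3, 12.2 and 18.3 in Experimental 1 to 5 and 48.1 in Experimental 6. The log2 difference was -0.39 ± 0.39 with all libraries (adjusted p = 0.745 in edgeR) and -0.83 without Experimental 6 (adjusted p = 0.0340). The Ccr1 ligands Ccl6 and Ccl9 varied less. Ccl6 had 155, 123, 126 and 155 CPM in Littermates and 100, 118 and 208 (lowest, median, highest) in Experimental libraries, and Ccl9 had 72.2, 71.7, 74.4 and 70.5 against 58.6, 66.9 and 101. In both, 5 Experimental libraries lay below all Littermates and Experimental 6 above them. The eotaxin Ccl24, a product of macrophages, had 11.5, 8.28, 11.02 and 8.73 CPM in Littermates and 5.43, 6.602 and 16.9 in Experimental libraries. With all libraries the log2 differences of Ccl6, Ccl9 and Ccl24 were -0.12, -0.02 and -0.28, and without Experimental 6 they were -0.31, -0.15 and -0.63, none of them called. Ccl8 likewise went from -0.28 to -0.45 without it and was not called.

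Without Experimental 6, 2 of 27 members passed an adjusted p of 0.05 in edgeR, Ccl4 and Ccr1, both lower, where 0.168% of all genes tested passed. Lower and not overlapping were then 6 members (Ccl3, Ccl4, Ccl6, Ccl9, Ccr1 and Ccr10), against 2.69% of all tested genes. Ccr7 stayed the member that was higher and not overlapping, against 1.68%. Experimental 6 is singled out here because its values of Ccl3, Ccl4, Ccl6, Ccl9 and Ccr1 were the highest. Leaving it out lowers the Experimental means of these genes by construction, so these calls and counts are no independent support. Leaving out Littermate 2 together with Experimental 6, a choice made after seeing the data, gave 4 called members, all lower (Ccl4, Ccr1, Ccl24 and Ccl6), where 2.73% of all tested genes were called lower. The log2 differences there were -1.35, -0.84, -0.70 and -0.37. Ccr7 was not called in either setting (adjusted p = 0.0856 and 0.0647).

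**Figure D4:**
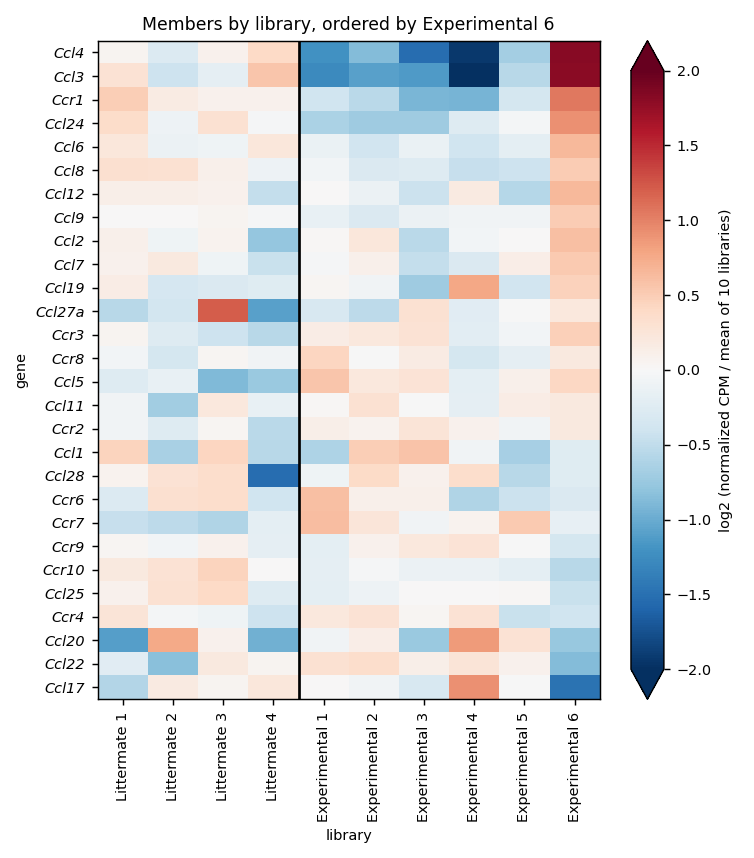
Normalized CPM of each tested member in each library relative to its mean over the 10 libraries (log2, colour scale from -2 to 2, values beyond it in the end colours), ordered by Experimental 6, with a line between the groups. The last column is red at one end for Ccl3, Ccl4, Ccr1 and Ccl24, and blue at the other for Ccl17 and Ccl22.

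Marker sums of 3 myeloid lists were also highest in Experimental 6. The 7 neutrophil markers summed to 61.1 to 99.7 CPM in Littermates, 46.5 to 67.2 in Experimental 1 to 5 and 118 in Experimental 6. The monocyte and macrophage list summed to 1534 to 1809, 1209 to 1538 and 1908 CPM, and the mast cell and basophil list to 577.8 to 685.4, 453.5 to 534.7 and 738.7 CPM. Only for mast cell and basophil markers did Experimental 1 to 5 all lie below every Littermate. Single genes made up much of these sums. In Littermates, Cxcr2 averaged 40.7 of 83.2 CPM, Mrc1 725 of 1673 and Hdc 136 of 630. The Experimental SD was 58.9 CPM for Hdc, against 104 for the mast cell and basophil sum and 13.1 for Mcpt4. A sum therefore need not follow most genes of its list. No gene of the 3 lists was called with all libraries. Medians of their log2 differences were -0.54, -0.20 and -0.21. Eosinophil markers were lowest in Experimental 6, at 6.98 CPM. Their part in the values of Ccl3, Ccl4, Ccr1, Ccl6, Ccl9 and Ccl24 was not tested.

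Promoter sequences are shown for genes on both sides of this contrast, Ccl3, Ccl9 and Ccr1, which were high in Experimental 6, and Ccl17 and Ccl22, which were low there. Each stretch is the 250 bases before the start in the RefSeq table for GRCm38.p6 (the mm10 assembly), 5′ to 3′ on the gene's strand. They lie at chr11:83649379-83649628 on the minus strand, chr11:83578637-83578886 on the minus strand, chr9:123968693-123968942 on the minus strand, chr8:94810203-94810452 on the plus strand and chr8:94745434-94745683 on the plus strand. Capitals mark matches, on either strand, to TTC and GAA with 4 bases between them (the spacing STAT6 prefers), TTCNNNGAA (other STAT factors), TGANTCA (AP-1) or the NF-kB consensus. STAT6 is the factor that IL-4 receptor and JAK1 signalling activate in many cells, which is why its motif was searched.
Ccl3: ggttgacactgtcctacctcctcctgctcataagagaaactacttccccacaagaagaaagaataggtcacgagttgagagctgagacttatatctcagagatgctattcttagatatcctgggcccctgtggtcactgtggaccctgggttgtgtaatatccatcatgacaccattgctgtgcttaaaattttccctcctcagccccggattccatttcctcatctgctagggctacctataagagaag
Ccl9: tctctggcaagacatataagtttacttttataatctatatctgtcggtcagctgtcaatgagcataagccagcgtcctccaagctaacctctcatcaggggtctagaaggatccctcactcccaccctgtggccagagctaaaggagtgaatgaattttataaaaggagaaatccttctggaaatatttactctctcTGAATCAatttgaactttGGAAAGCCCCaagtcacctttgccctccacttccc
Ccr1: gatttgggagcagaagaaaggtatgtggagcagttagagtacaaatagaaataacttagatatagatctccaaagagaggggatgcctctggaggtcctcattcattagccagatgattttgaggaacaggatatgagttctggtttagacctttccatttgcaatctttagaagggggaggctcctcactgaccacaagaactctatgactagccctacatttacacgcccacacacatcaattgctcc
Ccl17: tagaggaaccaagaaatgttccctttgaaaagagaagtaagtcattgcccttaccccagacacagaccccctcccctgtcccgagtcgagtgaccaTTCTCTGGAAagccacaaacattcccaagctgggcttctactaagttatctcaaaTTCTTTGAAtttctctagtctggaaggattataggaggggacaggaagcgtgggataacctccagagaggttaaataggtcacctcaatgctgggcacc
Ccl22: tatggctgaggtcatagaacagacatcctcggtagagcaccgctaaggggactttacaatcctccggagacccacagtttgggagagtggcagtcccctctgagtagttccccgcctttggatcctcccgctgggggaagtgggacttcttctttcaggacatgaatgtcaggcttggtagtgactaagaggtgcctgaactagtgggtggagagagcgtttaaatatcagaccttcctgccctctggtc

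In these stretches Ccl17 held one match to each STAT spacing, Ccl9 held one to AP-1 and one to NF-kB, and Ccl3, Ccr1 and Ccl22 held none. The motifs do not overlap each other there. Of the 33 genes, 24 had an entry in the table, whose windows run from 250 bases before to 50 after the start. The windows of Ccl1, Ccl21b, Ccr1l1 and Ccr9 lie 125878, 82647, 8307 and 88772 bases from the start of the deposited gene. Matches in them may not be at the promoter in use. The other windows lie at most 233 bases from that start (Ccr2). For Ccl22 the gap is 94 bases, and the last bases of its printed stretch lie within the deposited gene. The wider STAT spacing, with 4 bases, occurred in 1 of the 24 (Ccl17) and in 6.95% of all 32851 promoter windows. TTCNNNGAA occurred in 3 (Ccl17, Ccr1l1 and Ccr6) against 8.30%. TGANTCA occurred in 6 (Ccl9, Ccl27b, Ccl28, Ccr1l1, Ccr3 and Ccr4) against 7.81%, and the NF-kB consensus in 3 (Ccl9, Ccl20 and Ccr3) against 4.51%. The vitamin D receptor direct repeat, searched because MC903 binds that receptor, occurred in 0 of the 24 and in 0.0396% of all windows. A match is a run of letters and not a measured binding site.

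No gene of the 5 lists for the rest of the pathway passed the test. Atypical receptors of the Ackr genes bind chemokines without G protein signalling, and their list also held Ccrl2 and Pitpnm3. It had 0 of 6 tested genes called in either direction, with a median log2 difference of -0.07 (Pitpnm3 -0.25, Ackr2 -0.10). CXC, XC and CX3C ligands had 0 of 14 called and a median of -0.21 (Cxcl3 -0.97, adjusted p = 0.377 in edgeR; Cx3cl1 -0.20). Their receptors had 0 of 6 called and a median of -0.06 (Cxcr4 -0.33, Cx3cr1 0.32). Among 23 genes of chemokine receptor signalling, 0 were called and the median was -0.03 (Prex1 -0.43, Gnb1 -0.19). Among cytokines that induce CC chemokines, 0 of 9 tested were called and the median was 0.10. Tslp, the keratinocyte cytokine that MC903 induces, had a log2 difference of 1.401 with an adjusted p of 0.229, and Il1a one of 0.21. Over the same genes summed, the CXC, XC and CX3C ligands had 337.6 to 500.0 CPM in Littermates, 274.4 to 440.9 in Experimental 1 to 5 and 539.6 in Experimental 6, which was the highest library here too.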

How the data were processed

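Per the labels' protocols, total RNA from 10 ear skin samples (4 Littermate, 6 Experimental) was depleted of ribosomal RNA, reverse transcribed from random hexamers and sequenced in single reads of 50 bases. No strand marking is described. STAR 2.0.4b, Subread and featureCounts 1.4.5 with mm10 were used, per the submitters' processing notes. The sources used here do not name the annotation release. Per the file headers, each deposited file gives a read count per Ensembl gene, with CPM and RPKM columns that the authors computed. The deposited RPKM and CPM were not tested. Symbols were matched to 97.3% of gene identifiers. Total counts per library were 11520348 to 41935183. The floor of 3 counts covers counting error only, and intervals of differences, from the edgeR fit, include the spread between mice.

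Counts were tested with edgeR 4.0.16 (R 4.3.3; filterByExpr, TMM factors of 0.984 to 1.02, robust quasi-likelihood test, 2-sided, Benjamini-Hochberg over 16830 genes, threshold 0.05). Normalized CPM and RPKM were computed from the counts, the TMM factors and the deposited gene lengths. The fit was tested on simulated data, with 16663 genes. Alternatives were DESeq2 1.42.0, limma 3.58.1, other factors and filters, a replicate block, a covariate and left-out libraries. No 2 libraries agreed within sampling noise. Values in every Littermate library, with the lowest, median and highest Experimental ones or all of them, are given for the 10 members highest per length, the 10 with the lowest p and those called in an alternative with DESeq2 or left-out libraries, and up to 2 genes per pathway list are named by lowest p. Values of Ccl19 and Ccl27a were added after they were seen. Of 34 genes that meet the choice by symbol, 1 is not reported here and is in no count of members. Members and lists were chosen with earlier results of these data known. GENCODE M21 transcripts served for shared 50-base windows.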

Additional observations from a re-analysis of the deposited data

Results flagged for a closer look

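In 12 of 56 groups of libraries checked, the highest or lowest library lay far from the rest of its group by Dixon's criterion, which chance meets in about 1 of 20 groups. These groups are not independent, since 9 of the 12 have Experimental 6 as the far library.

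Library Experimental 6 was far above the other 5 Experimental libraries for Ccl3 (67.0 normalized CPM, next 12.9), Ccl4 (25.3, next 4.46), Ccr1 (48.1, next 18.3), Ccl24 (16.9, next 8.65), Ccl6 (208, next 122), Ccl8 (340, next 231) and Ccl9 (101, next 68.1). It was far below them for Ccl22 (4.13, next 8.04) and Ccr10 (1.63, next 2.10). In the Littermate group, Littermate 3 was far above the rest for Ccl27a (14.2, next 4.76), Littermate 1 for Ccl19 (1.64, next 1.25), and Littermate 4 was far below for Ccl12 (3.74, next 5.47). Reads of Ccl27a and Ccl19 can also match near-identical copies of these genes.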

How the results depend on the processing

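The depth of the shallower libraries, in both groups, limits the tested members below 1 CPM, Ccl5, Ccl1 and Ccl28. Near-identical copies limit Ccl19, Ccl21a, Ccl21b, Ccl27a and Ccl27b. Against 3 genes called over all tested genes, 78 were called with no filter on low counts, 67 with the replicate block, 232 with DESeq2, 60 with limma voom and quality weights, and 563 with Littermate 2 and Experimental 6 both left out. Leaving out 1 library gave 3 to 343, with 343 without Littermate 2, 28 without Experimental 6 and 8 without Littermate 3. Against 0 members called, the replicate block gave 1 (Ccr1, log2 -0.90, adjusted p = 0.0151 in edgeR), DESeq2 gave 1 (Ccr7), leaving out Littermate 2 and Experimental 6 gave 4, and leaving out 1 library gave 0 to 2. The block takes Experimental 6 out of the group difference, so its call is not separate from that removal. Against 5 members at an unadjusted p under 0.05, there were 8 with the replicate block (10.6% of all genes), 3 with the level of Y-linked genes as a covariate (5.43%), 8 with quality weights (13.6%), 9 without Littermate 2 and Experimental 6 (19.4%), 3 without the 2 deepest libraries (7.04%), and 3 to 11 with 1 library left out. The 11 were 40.7% of 27 members without Experimental 6, against 13.6% of all genes, and 8 of them were lower, against 9.09%. The median log2 difference of the members ran from -0.04 to 0.12 and stayed within the spread between libraries (0.160) of the main 0.06. The last 2 removals were chosen after seeing the data. The causes were not tested.

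No sign was seen that the replicate numbers pair the mice, though so few pairs cannot exclude it. Deviations of libraries with the same number correlated at -0.02 to 0.09 over 4 pairs, and 1 of the 4 Littermates correlated best with its own number. Of 574 member values under the alternatives, 510 kept direction and side of the threshold, 8 passed it and 56 changed sign. Sign changes touched 13 members and 15 had none, Ccr7, Ccr2, Ccl5, Ccr10 and Ccr3 among them. DESeq2 gave no adjusted p for 4 members. Under the replicate block, log2 was -0.12 for Ccl7, 0.042 for Ccr6, 0.13 for Ccl17 and -0.085 for Ccl12. With the Y-linked covariate it was -0.051 for Ccl7, -0.014 for Ccl1, -0.041 for Ccr9, -0.092 for Ccl28, -0.12 for Ccl20, 0.098 for Ccl17 and -0.028 for Ccl12. With limma voom it was 0.084 for Ccl27a and -0.055 for Ccl12, and with quality weights -0.0065 for Ccl1, 8.7e-05 for Ccr6 and -0.11 for Ccl12. Without Littermate 2 and Experimental 6 it was 0.13 for Ccr6, 0.18 for Ccl17 and -0.097 for Ccl12. Without the 2 deepest libraries it was -0.030 for Ccr9, -0.063 for Ccl28, 0.16 for Ccl3, 0.25 for Ccl4, 0.072 for Ccl9 and 0.055 for Ccl17. With 1 library left out, log2 ran from -0.0032 to 0.21 for Ccr4, -0.39 to 0.58 for Ccl27a, -0.051 to 0.17 for Ccl7, -0.051 to 0.30 for Ccl1, -0.0013 to 0.11 for Ccr9, -0.17 to 0.25 for Ccl28. It ran from -1.31 to 0.018 for Ccl3, -0.11 to 0.55 for Ccl20, -1.25 to 0.057 for Ccl4, -0.15 to 0.035 for Ccl9, -0.18 to 0.088 for Ccr6, -0.28 to 0.12 for Ccl17, -0.15 to 0.11 for Ccl12. All 66 levels per length without the TMM factor stayed within 1 SD.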

Other observations

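Among the 12369 tested genes with a mean of at least 5 normalized CPM, 6 genes, Ccl3 among them, had a ratio of highest to lowest library as large as that of Ccl3, and 12, Ccl4 among them, as large as that of Ccl4. Within the Littermates the ratios were 1.95 for Ccl3 and 1.59 for Ccl4. Ccl27a had its spread in the other group, with a ratio of 4.93 among Littermates and 1.78 among Experimental libraries. Ccl17 had 5.28 among Experimental libraries, where Experimental 4 held the highest value at 6.45 CPM and Experimental 6 the lowest at 1.22. The pseudogene Ccl19-ps1, which is no member, had 31 counts over all libraries.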
